A study of Mus musculus with 4 samples.

Results

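Basic helix-loop-helix (bHLH) transcription factors were examined in melanotropes and corticotropes, which are the pituitary cells expressing the hormone precursor gene Pomc. The set held 45 genes named by symbol, from the HES and HEY, ID, E protein, neural, BHLHE40, mesoderm and blood, MYC, PAS, USF and MiT branches of the family. All 45 were in the deposited table, with 75 of its 33072 RefSeq transcripts, among 24063 genes in all. Melanotropes (2 libraries) came from the intermediate lobe and corticotropes (2 libraries) from the anterior lobe of mice of strain C57B6. The lobes were dissected apart and GFP-positive cells were then sorted for all 4 libraries. Every mouse carried the POMC-EGFP transgene, in which EGFP marks cells that express Pomc. The labels give no age, sex or number of animals, and they do not say if replicates were sorted separately, so p-values measure the spread between these libraries, which may be technical.

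bHLH proteins bind DNA as dimers, through a basic region that reads a short E-box sequence, CANNTG. Tissue-specific factors usually pair with a widely expressed E protein, and ID proteins, which have no basic region, take E proteins out of DNA-binding pairs. HES and HEY proteins are repressors that act downstream of Notch, the MYC and MXD proteins share the partner MAX, and the PAS branch carries oxygen and activity signals through the partner ARNT. In the pituitary the family is best known for Neurod1, which takes part in corticotrope differentiation.

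FPKM values (reads per exon length and sequencing depth) were rescaled between libraries, and those below are rescaled unless they are called deposited. The test was limma on log2(FPKM + 1), for genes that reached 1 FPKM in at least 2 libraries. Fold changes are melanotrope over corticotrope, with a median over all genes of 0.00, and an adjusted p under 0.05 is a call. On that scale the change of low genes is understated. The spacing of low values gave 97603730 to 187170079 implied reads per library over the longest transcript of each gene. All 5 melanotrope markers tested were higher and 3 of 4 corticotrope markers (Crhr1, Avpr1b, Nr3c1) lower in melanotropes, the exception being Gpr165, which was higher. Of the markers of the other lineages of the anterior lobe, 13 of 13 tested were lower in melanotropes, with summed FPKM of 14.9 and 62.9 in melanotropes against 5871 and 5638 in corticotropes. Endothelial markers summed to 9.79 and 6.74 FPKM in melanotropes against 17.6 and 26.9 FPKM in corticotropes, with 4 of 6 tested lower and 0 higher (limma; 0 higher also at an unadjusted p under 0.05). Markers of posterior lobe and glia summed to 25.98 and 28.2 FPKM in melanotropes against 5.45 and 6.61 FPKM in corticotropes, with 3 of 4 tested higher. Pericyte and fibroblast markers summed to 20.8 and 17.9 FPKM in melanotropes against 9.74 and 11.6 FPKM in corticotropes, with 3 of 5 tested higher (Col3a1, Dcn and Lum) and 1 lower (Rgs5). Folliculostellate and stem cell markers summed to 37.7 and 42.9 FPKM in melanotropes against 49.6 and 58.2 FPKM in corticotropes, and all 5 tested were called, Sox2 and Sox9 higher and Aldh1a1, Aldh1a2 and Vim lower. Blood and macrophage markers summed to 18.4 and 23.65 FPKM in melanotropes against 23.62 and 31.4 FPKM in corticotropes, and moved apart within the list, with 5 of 8 tested higher (the macrophage genes Csf1r, Cx3cr1, C1qa, C1qb and Tyrobp) and 2 lower (the red cell genes Hbb-bs and Hba-a1). Markers can pass the filter through 1 cell type alone. Tshb, Pou1f1, Gata2, Nr5a1, Foxl2, Ghrhr, Gnrhr, Dlk1, Avpr1b, Emcn, Pecam1, Rgs5 and Hba-a1 passed through corticotropes alone. Rax, Lum, Col3a1, Sox9, Csf1r, Cx3cr1, Tyrobp and Cd68 passed through melanotropes alone. The marker counts by themselves are therefore no sign of a direction, while the sums cover all listed markers. In these bulk libraries, fewer cells of a type and less RNA per cell cannot be told apart.

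**Figure D1:**
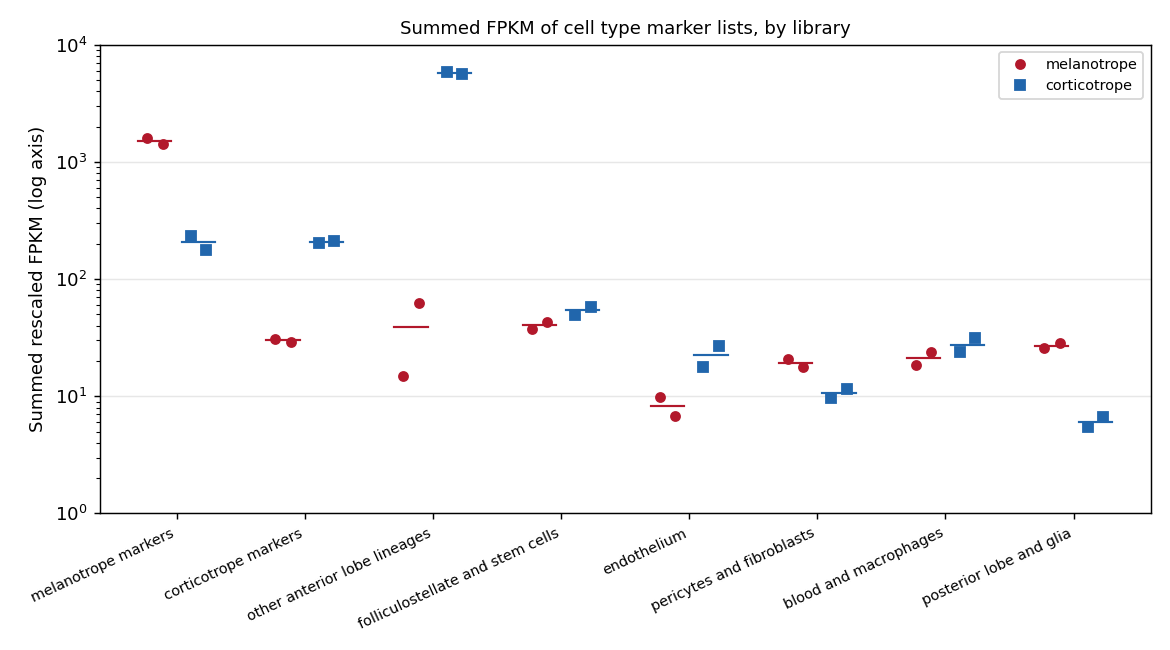
Summed rescaled FPKM (log axis) of each list of cell type markers in the 2 melanotrope (red circles) and 2 corticotrope (blue squares) libraries, with bars at the means. Other anterior lobe lineages summed to 5871 and 5638 FPKM in the corticotrope libraries, and posterior lobe and glia markers were higher in both melanotrope libraries.

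Of the 45 genes, 33 passed the expression filter and 12 did not. Among the 33, 7 were called higher and 14 lower in melanotropes, and 12 were not called. Over all 13046 genes tested, 37.2% were called, 18.9% higher and 18.3% lower. The median log2 fold change of the 33 was -0.16. A gene can pass the filter through 1 cell type alone, so these counts describe the genes that passed and not the family as a whole. Libraries of the cell types did not overlap for 26 of the 33, against 71.1% of all genes tested. At 2-fold or more, 3 were higher (Mycl, Bhlha15 and Id4) and 5 lower (Twist2, Id1, Heyl, Tfeb and Bhlhe40), 8 in all. Over all genes tested this held for 8.88%, 4.12% higher and 4.75% lower. On the deposited scale, where the median log2 fold change of all genes was -0.42, the set had 4 genes higher and 21 lower, and 73.9% of all genes tested were called, 7.14% higher and 66.8% lower. Without corticotrope replicate 1 there were 7 higher and 9 lower of 30 tested, and without corticotrope replicate 2 there were 7 higher and 7 lower of 30. Twist2, Heyl and Hey2 fell under the expression filter in both of those fits.

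**Figure D2:**
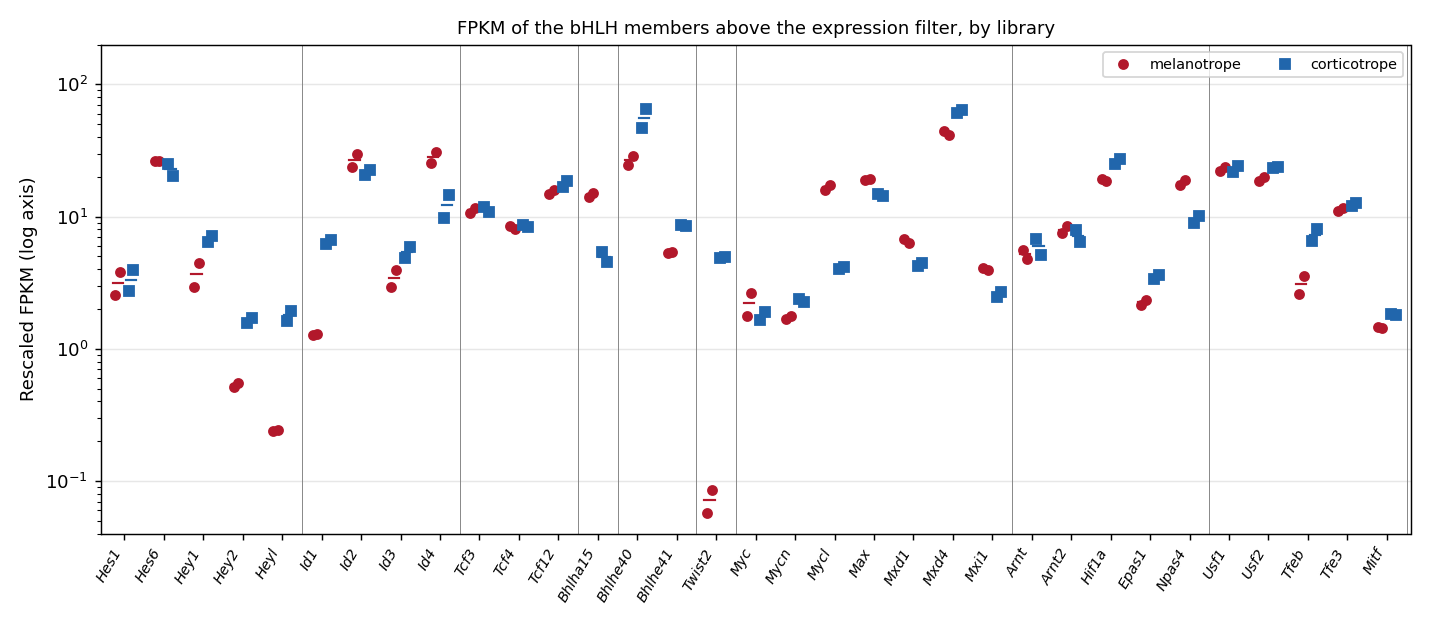
Rescaled FPKM (log axis) of the 33 bHLH genes above the expression filter in the 2 melanotrope (red circles) and 2 corticotrope (blue squares) libraries, in order of role, with short bars at the means. Twist2 lay under 0.1 FPKM in both melanotrope libraries and near 5 FPKM in corticotropes, while the E proteins Tcf3 and Tcf4 overlapped.

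The authors' deposited table, whose test was run on FPKM values, gave 3 of the 45 genes an FDR under 0.05, where it did so for 2.09% of all 24063 genes by their longest transcripts (1.11% higher and 0.977% lower). In the authors' deposited table these were Bhlhe40 (log2 fold change -1.08, FDR 0.00106), Mycl (log2 fold change 2.03, FDR 0.00718) and Id4 (log2 fold change 1.19, FDR 0.0261).

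The ID genes moved in opposite directions. Id1 (chromosome 2, 152736251 to 152737410 on mm10, as for the positions of genes that follow) had 1.28 and 1.30 FPKM in melanotropes, against 6.16 and 6.66 FPKM in corticotropes. Both melanotrope libraries lay below both corticotrope libraries, and the log2 fold change was -1.70 (SE 0.09, limma adjusted p = 1.14e-04). Id4 (chromosome 13, 48261427 to 48264036) went the other way, with 25.6 and 30.9 FPKM in melanotropes against 9.79 and 14.5 FPKM in corticotropes. Its libraries did not overlap, and its log2 fold change was 1.17 (SE 0.18, limma adjusted p = 0.00505). Id4 is known in mouse for a role in neural precursors, and glial markers were higher in the same melanotrope libraries (3 of 4 tested), whose part in the result was not tested. Summed markers of endothelium and of other anterior lobe lineages were lower there, as were Id1 and Id3, and their part was not tested either.

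Id3 was lower in melanotropes, at 2.94 and 3.95 FPKM against 4.91 and 5.94 FPKM in corticotropes (log2 fold change -0.54, limma adjusted p = 0.0314). That call was lost without corticotrope replicate 2 (limma adjusted p = 0.1001), without melanotrope replicate 1 (0.128) and with no expression filter (0.0856), with a range of 2.28e-04 to 0.128 over 14 alternatives. Id2 had 23.9 and 29.8 FPKM in melanotropes and 20.7 and 22.6 FPKM in corticotropes. Its libraries did not overlap, but the log2 fold change of 0.29 did not pass (limma adjusted p = 0.108). It passed with equal sums of the transcripts other than Pomc (0.0427) and without melanotrope replicate 1 (0.0304; range 0.00469 to 0.423), and as deposited its log2 fold change was -0.17.

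Summed over the 4 ID genes, melanotropes had 53.7 and 65.9 FPKM and corticotropes 41.5 and 49.7 FPKM. The sums did not overlap on this scale, but they did as deposited, at 47.0 and 54.0 FPKM in melanotropes and 50.2 and 57.4 FPKM in corticotropes, with the lower mean in melanotropes. Shares of the sum within a library do not depend on the scaling. Id4 made up 47.7% and 46.9% of the sum in melanotropes against 23.6% and 29.2% in corticotropes, and Id1 made up 2.38% and 1.96% in melanotropes against 14.8% and 13.4% in corticotropes. The sums were formed with the single values known, and no test was made of them.

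None of the 3 E proteins, the general partners of the family, was called (limma; 0 also at an unadjusted p under 0.05). Tcf3, which encodes E12 and E47, had 10.7 and 11.6 FPKM in melanotropes and 11.9 and 10.9 FPKM in corticotropes. Tcf4 had 8.54 and 8.11 FPKM in melanotropes and 8.69 and 8.29 FPKM in corticotropes, and in both genes the libraries of the cell types overlapped. Tcf12 had 14.8 and 15.8 FPKM in melanotropes and 16.8 and 18.5 FPKM in corticotropes. Their log2 fold changes of -0.03 (SE 0.09), -0.02 (SE 0.08) and -0.19 (SE 0.08) were not called, but on the deposited scale all 3 were called lower (log2 fold changes of -0.47, -0.46 and -0.64). Summed over the 3 genes there were 34.1 and 35.5 FPKM in melanotropes and 37.4 and 37.6 FPKM in corticotropes, so that ID transcripts stood at 1.58 and 1.85 times the E protein transcripts in melanotropes and 1.11 and 1.32 times in corticotropes.

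**Figure D3:**
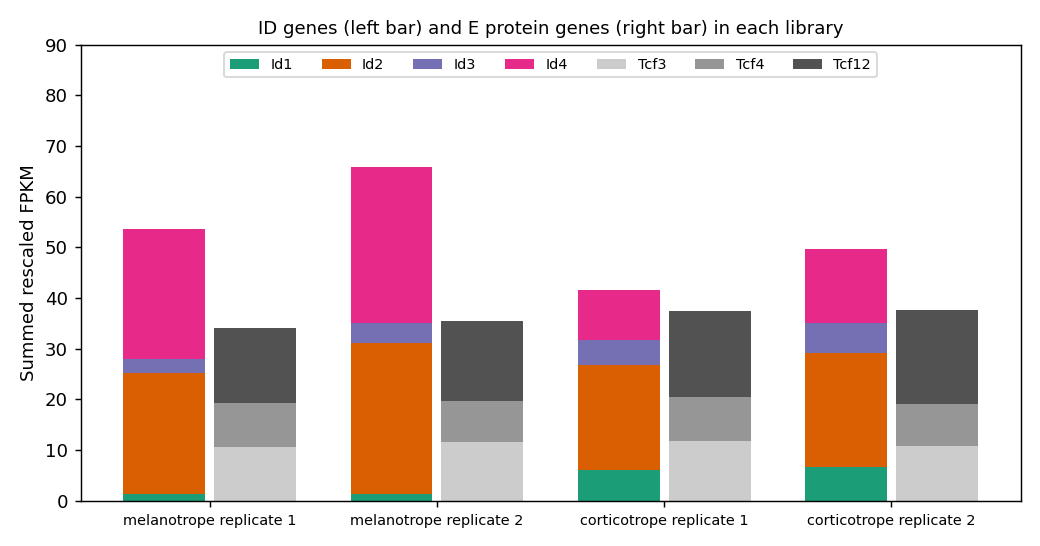
Stacked bars of the rescaled FPKM of the 4 ID genes (left bar, colours) and the 3 E protein genes (right bar, greys) in each library. Id4 fills a larger and Id1 a smaller part of the ID bar in both melanotrope libraries, and the E protein bars stand between 34.1 and 37.6 FPKM in all 4 libraries.

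Among the HES and HEY repressors, 3 of 5 tested were lower in melanotropes and 0 were called higher (limma; 0 higher also at an unadjusted p under 0.05), where 18.3% of all genes tested were lower. Heyl and Hey2 passed the filter through corticotropes alone, so the count is no sign of a direction of the branch. Heyl (chromosome 4, 123233556 to 123249870) had 0.240 and 0.244 FPKM in melanotropes, against 1.64 and 1.94 FPKM in corticotropes. The melanotrope values rested on 208 and 212 implied reads, and the log2 fold change was -1.16 (SE 0.10, limma adjusted p = 6.19e-04). Hey2 had 0.515 and 0.550 FPKM in melanotropes against 1.58 and 1.71 FPKM in corticotropes (log2 fold change -0.79, limma adjusted p = 0.00185). Hey1 was at 2.92 and 4.48 FPKM in melanotropes against 6.45 and 7.18 FPKM in corticotropes. The cell types did not overlap in any of the 3 HEY genes, and Hey1 (log2 fold change -0.75, limma adjusted p = 0.0176) missed the threshold with no expression filter (0.0579; range 7.25e-05 to 0.0579). HEY genes are also known from blood vessels, and endothelial markers were lower in the same melanotrope libraries (4 of 6 tested), whose part in the result was not tested.

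Hes6, a HES protein that opposes Hes1 in mouse neural cells, was the most abundant of the branch, at 26.4 and 26.1 FPKM in melanotropes and 25.2 and 20.4 FPKM in corticotropes (log2 fold change 0.20, limma adjusted p = 0.204). Hes1 had 2.55 and 3.80 FPKM in melanotropes and 2.74 and 3.93 FPKM in corticotropes, with a log2 fold change of -0.06 (limma adjusted p = 0.838). For Hes1 replicate 2 was the higher library in both cell types. Hes5, a direct Notch target in neural progenitors, stayed under the filter at 0.114 and 0.0489 FPKM in melanotropes and 0.240 and 0.147 FPKM in corticotropes.

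Bhlha15, also called Mist1, is a factor of professional secretory cells, known from exocrine pancreas and plasma cells. It had 13.99 and 15.1 FPKM in melanotropes, against 5.37 and 4.58 FPKM in corticotropes (chromosome 5, 144190286 to 144194441). Every melanotrope library was above every corticotrope library, and the log2 fold change was 1.38 (SE 0.10, limma adjusted p = 3.10e-04). The call held under all 14 alternatives run for this gene. Its RefSeq promoter window (GRCm38.p6, chr5:144190036-144190335, plus strand), shown for its E-boxes, holds 3 CANNTG matches. They are in capitals, CAGGTG at 200 and 55 bases and CAGATG at 187 bases before the start site, counted to the first base of the match.
Bhlha15: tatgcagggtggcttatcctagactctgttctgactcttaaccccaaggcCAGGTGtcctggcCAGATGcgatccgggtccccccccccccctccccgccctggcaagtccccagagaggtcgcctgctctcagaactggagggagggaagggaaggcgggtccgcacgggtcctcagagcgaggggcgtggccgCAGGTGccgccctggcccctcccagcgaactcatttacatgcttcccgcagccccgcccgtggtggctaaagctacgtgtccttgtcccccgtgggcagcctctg

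Windows run from 250 bases before to 50 after each start, and 35 of the 45 genes have an entry in the RefSeq table. CANNTG, which reads the same on both strands, is in 72.3% of all 32851 windows in that table, and in 25 of these 35. A match is a description of the letters and not a site of binding.

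The other neural factors of the set lay under the filter. Neurod4, which acts in neuronal differentiation, was at 0 and 0.0244 FPKM in melanotropes and 0.786 and 0.788 FPKM in corticotropes. The corticotrope values rested on 365 and 700 implied reads and the melanotrope values on 0 and 16, so that the groups did not overlap, although no test was made. Markers of other anterior lobe lineages, Gh and Ghrhr among them, were also higher in corticotropes, and their part was not tested. Nhlh2, known in mouse for hypothalamic neurons, was at 0.0229 and 0.0244 FPKM in melanotropes and 0.116 and 0.0952 FPKM in corticotropes. Neurod2, Neurod6, Nhlh1 and Bhlhe22, factors of central neurons, were under 0.1 FPKM in all 4 libraries.

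Bhlhe40 and Bhlhe41 encode repressors of the clock system that bind E-boxes, and both were lower in melanotropes. Bhlhe40 (chromosome 6, 108660629 to 108666925) had 24.7 and 28.9 FPKM in melanotropes, against 47.1 and 65.0 FPKM in corticotropes. The corticotrope libraries differed from each other by more than the melanotrope libraries did, without overlap, and the log2 fold change was -1.02 (SE 0.16, limma adjusted p = 0.00521). Bhlhe41 (chromosome 6, 145858243 to 145865420) had 5.31 and 5.42 FPKM in melanotropes against 8.69 and 8.46 FPKM in corticotropes, with a log2 fold change of -0.59 (SE 0.08, limma adjusted p = 0.00251). In GENCODE M21, exons on the opposite strand overlap 19.0% of the Bhlhe41 exons and 2.51% of the Bhlhe40 exons. Exons on the opposite strand also overlap 31.8% of Hes5, 19.6% of Hand2, 6.3% of Usf2, 6.06% of Mxd4 and 5.6% of Hif1a. In Id4 they overlap 4.44% (Gm49291) and 2.13% (A330033J07Rik), in Mxi1 2.84% and in Arnt2 2.78%. These shares are of all exons annotated for a gene, and whether the overlaps lie in the counted transcript was not determined. No strand setting is stated, so any reads of these partners within the counted exons cannot be told apart from those of the gene. Exons of another gene on the same strand overlap 7.13% of Usf1 and 2.51% of Hif1a, and strand would not separate those reads.

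Twist2 showed the largest fold change among the 33 genes tested. TWIST proteins are known from mesenchyme and connective tissue, where they act as repressors. Twist2 (chromosome 1, 91801477 to 91848027) had 0.0572 and 0.0855 FPKM in melanotropes, against 4.89 and 4.95 FPKM in corticotropes. The melanotrope values rested on 14 and 21 implied reads and the corticotrope values on 890 and 1723, and the mean in corticotropes was 69.0 times that in melanotropes. Its log2 fold change was -2.47 (SE 0.09, limma adjusted p = 4.99e-05). Beside it, the summed level of fibroblast and pericyte markers was higher in melanotropes (20.8 and 17.9 FPKM against 9.74 and 11.6 FPKM in corticotropes, with 3 of 5 tested higher and 1 lower). Summed markers of other anterior lobe lineages did move with it (14.9 and 62.9 FPKM in melanotropes against 5871 and 5638 FPKM in corticotropes). Their part in the result was not tested. The annotated antisense gene Gm29100 overlaps 1477 of the 3174 annotated exon bases of Twist2 (46.5%), while the counted transcript has 1308 bases. How much of the counted transcript it overlaps was not determined, so the level of Twist2 is uncertain without a stated strand. The promoter window of Twist2 (GRCm38.p6, chr1:91801211-91801510, plus strand, with its start 16 bases from that of the deposited transcript), shown as the window of the gene that differed most, holds 0 matches to CANNTG.
Twist2: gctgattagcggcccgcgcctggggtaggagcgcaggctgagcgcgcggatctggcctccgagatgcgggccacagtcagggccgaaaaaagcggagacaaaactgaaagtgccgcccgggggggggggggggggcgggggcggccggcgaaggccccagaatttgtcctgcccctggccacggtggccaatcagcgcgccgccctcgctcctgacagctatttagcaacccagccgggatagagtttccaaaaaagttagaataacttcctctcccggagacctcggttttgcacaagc

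The paralog Twist1 went numerically the other way at far lower levels, with 0.217 and 0.257 FPKM in melanotropes and 0.0414 and 0.104 FPKM in corticotropes, and was not tested. Hand2, a factor of heart and sympathetic neurons, was listed at 0 in all 4 libraries. Tal1, which drives blood and endothelial fates, was under 0.1 FPKM throughout. Its relative Lyl1 had 0.343 and 0.257 FPKM in melanotropes and 0.157 and 0.130 FPKM in corticotropes.

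All 7 genes of the MYC, MAX and MXD network were tested, with 4 called higher and 2 lower in melanotropes. Over all genes tested, 18.9% were higher and 18.3% lower. Mycl, which encodes L-MYC, had the largest increase. It had 16.0 and 17.4 FPKM in melanotropes, against 4.05 and 4.18 FPKM in corticotropes (chromosome 4, 122996099 to 123002480). The groups were wide apart and each narrow, with a log2 fold change of 1.79 (SE 0.08, limma adjusted p = 7.93e-05). Mycl was the MYC gene with the highest FPKM in every library. Its window (GRCm38.p6, chr4:122995681-122995980, plus strand, 168 bases from the start of the deposited transcript), shown as that of the gene with the largest increase, holds 1 CANNTG match, in capitals, 106 bases before the start site.
Mycl: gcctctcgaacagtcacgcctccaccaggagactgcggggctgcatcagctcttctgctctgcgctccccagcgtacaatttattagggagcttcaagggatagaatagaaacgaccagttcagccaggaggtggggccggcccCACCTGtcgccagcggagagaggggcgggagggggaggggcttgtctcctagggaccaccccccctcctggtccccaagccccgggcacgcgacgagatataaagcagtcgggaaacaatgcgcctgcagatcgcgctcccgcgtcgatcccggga

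Myc itself had 1.78 and 2.65 FPKM in melanotropes and 1.66 and 1.90 FPKM in corticotropes, with overlapping libraries and a log2 fold change of 0.20 (limma adjusted p = 0.347). Mycn was at 1.67 and 1.78 FPKM in melanotropes against 2.40 and 2.28 FPKM in corticotropes (log2 fold change -0.29, limma adjusted p = 0.0494). The Mycn call held under 5 of 14 alternatives (range 0.00293 to 0.249) and was lost without any of the 4 libraries, with adjusted p of 0.136 to 0.249. Max, the shared partner, had 19.0 and 19.2 FPKM in melanotropes against 14.7 and 14.4 FPKM in corticotropes (log2 fold change 0.37, limma adjusted p = 0.00965). Its direction turned on the deposited scale (log2 fold change -0.08), and its call was lost without melanotrope replicate 2 (limma adjusted p = 0.0522; range 7.47e-04 to 0.377).

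MXD proteins and MXI1 compete with MYC for MAX and repress. Mxd1 had 6.74 and 6.29 FPKM in melanotropes against 4.23 and 4.45 FPKM in corticotropes (log2 fold change 0.49, limma adjusted p = 0.00671). Mxi1 had 4.08 and 3.96 FPKM in melanotropes against 2.46 and 2.69 FPKM in corticotropes, with the same size of change (log2 fold change 0.49, limma adjusted p = 0.00812). Without rescaling both stayed positive but lost the call, Mxd1 with an adjusted p of 0.445 (range 4.04e-04 to 0.445) and Mxi1 with 0.283 (range 5.98e-04 to 0.283), and Mxi1 was also lost without melanotrope replicate 1 (0.0565). Mxd4, the member of this network with the highest FPKM, was lower, at 44.2 and 41.3 FPKM in melanotropes against 61.1 and 64.4 FPKM in corticotropes (log2 fold change -0.54, limma adjusted p = 0.00363).

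CACGTG, the form of E-box read by MYC with MAX and by the USF, MiT and BHLHE40 proteins, is in 7.15% of all windows and in 4 of the 35, those of Max, Mxd4, Bhlhe41 and Hif1a. These stretches of 46 bases are shown to compare the surroundings of the match, in capitals; CACGTG reads the same on both strands. They lie on GRCm38.p6 at chr12:76962226-76962271 (Max, minus strand), chr5:34187904-34187949 (Mxd4, minus strand), chr6:145865548-145865593 (Bhlhe41, minus strand) and chr12:73907712-73907757 (Hif1a, plus strand). Max rose while the other three fell in melanotropes, Max with the exception of the deposited scale given above.
Max: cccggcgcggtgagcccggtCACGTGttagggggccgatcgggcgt
Mxd4: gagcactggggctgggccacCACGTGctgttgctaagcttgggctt
Bhlhe41: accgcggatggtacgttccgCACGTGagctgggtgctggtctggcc
Hif1a: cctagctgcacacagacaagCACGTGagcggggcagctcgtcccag

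In the PAS branch, Npas4, an activity-dependent immediate early gene of neurons, was higher in melanotropes. It had 17.4 and 19.0 FPKM in melanotropes, against 8.94 and 10.2 FPKM in corticotropes (chromosome 19, 4984355 to 4989971), with a log2 fold change of 0.86 (SE 0.09, limma adjusted p = 0.00124). The oxygen-regulated subunits were both lower. Hif1a had 19.3 and 18.6 FPKM in melanotropes against 24.9 and 27.4 FPKM in corticotropes (log2 fold change -0.44, limma adjusted p = 0.00822). Epas1, which encodes HIF-2α and is known from endothelium, had 2.14 and 2.36 FPKM in melanotropes against 3.38 and 3.62 FPKM in corticotropes (log2 fold change -0.47, limma adjusted p = 0.0110). The Epas1 call was lost without corticotrope replicate 2 (0.0510) and without melanotrope replicate 1 (0.0768; range 7.30e-04 to 0.0768), and endothelial markers were also lower in melanotropes (4 of 6 tested), whose part was not tested.

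The partner genes were not called. Arnt had 5.60 and 4.83 FPKM in melanotropes and 6.82 and 5.11 FPKM in corticotropes (log2 fold change -0.16, limma adjusted p = 0.430), and was called lower as deposited (0.0247; range 0.0247 to 0.918). Arnt2, the partner enriched in neurons, had 7.55 and 8.44 FPKM in melanotropes and 7.96 and 6.43 FPKM in corticotropes (log2 fold change 0.14, limma adjusted p = 0.398). In both genes the libraries of the cell types overlapped. Sim1, a factor of hypothalamic neurons, was under 0.1 FPKM in all 4 libraries.

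Of the USF and MiT factors, which bind CACGTG and in the MiT branch control lysosome genes, 2 of 5 were called lower. By limma 0 were called higher, and 0 were higher at an unadjusted p under 0.05. Of all genes tested, 18.3% were lower and 18.9% higher. Tfeb (chromosome 17, 47737037 to 47792416), a regulator of lysosome and autophagy genes, had 2.60 and 3.56 FPKM in melanotropes, against 6.56 and 8.04 FPKM in corticotropes. The groups did not overlap, and the log2 fold change was -1.03 (SE 0.15, limma adjusted p = 0.00364). Its relatives Tfe3 and Mitf were not called. Tfe3 had 10.97 and 11.6 FPKM in melanotropes and 11.9 and 12.7 FPKM in corticotropes (log2 fold change -0.11, SE 0.08), and Mitf had 1.48 and 1.43 FPKM in melanotropes and 1.84 and 1.80 FPKM in corticotropes (log2 fold change -0.20, SE 0.09). Without rescaling both passed as lower, Tfe3 with a limma adjusted p of 0.00186 (range 0.00186 to 0.676) and Mitf with 0.00583 (range 0.00583 to 0.414).

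Usf1 was not called, at 22.3 and 23.9 FPKM in melanotropes and 21.6 and 24.1 FPKM in corticotropes, which overlapped (log2 fold change 0.02, SE 0.09), although on the deposited scale it was called lower (log2 fold change -0.45). Usf2 had 18.6 and 20.1 FPKM in melanotropes against 23.4 and 23.6 FPKM in corticotropes (log2 fold change -0.27, limma adjusted p = 0.0369). The Usf2 call held under 8 of 14 alternatives (range 6.79e-04 to 0.182) and was lost without any of the 4 libraries, with adjusted p of 0.0689 to 0.182. The remaining windows of genes that differed at least 2-fold, shown to complete that group, are those of Tfeb (GRCm38.p6, chr17:47736787-47737086, plus strand) and Id4 (GRCm38.p6, chr13:48260866-48261165, plus strand, 311 bases from the start of the deposited transcript). Each holds 0 matches to CANNTG, so no base is in capitals. Id1, Heyl and Bhlhe40 have no entry.
Tfeb: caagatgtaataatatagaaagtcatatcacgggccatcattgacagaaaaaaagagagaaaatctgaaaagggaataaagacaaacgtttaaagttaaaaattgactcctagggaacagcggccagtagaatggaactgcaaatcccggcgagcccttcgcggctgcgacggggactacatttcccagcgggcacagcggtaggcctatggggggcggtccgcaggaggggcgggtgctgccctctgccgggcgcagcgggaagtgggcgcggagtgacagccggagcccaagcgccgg
Id4: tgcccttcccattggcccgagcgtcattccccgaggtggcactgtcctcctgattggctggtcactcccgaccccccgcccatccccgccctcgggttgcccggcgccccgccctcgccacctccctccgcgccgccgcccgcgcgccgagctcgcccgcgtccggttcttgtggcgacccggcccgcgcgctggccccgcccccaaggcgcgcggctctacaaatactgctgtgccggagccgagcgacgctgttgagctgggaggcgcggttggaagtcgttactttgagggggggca

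**Figure D4:**
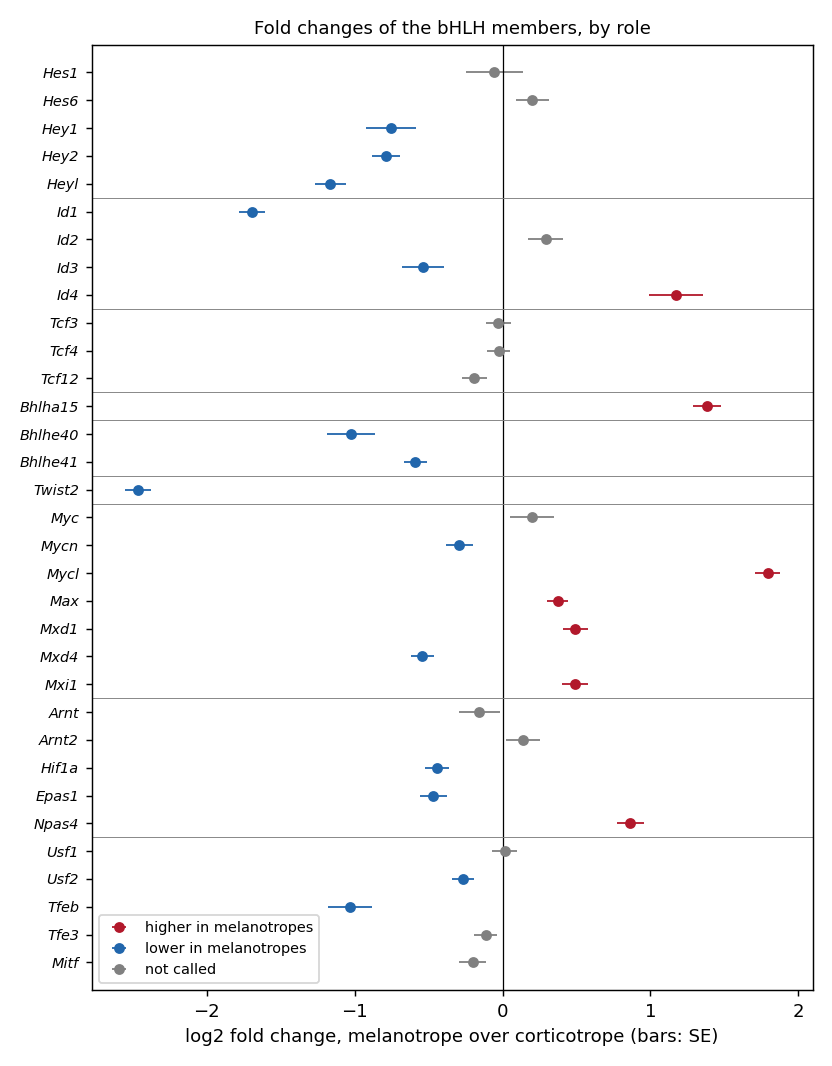
Log2 fold change (melanotrope over corticotrope, on log2(FPKM + 1)) of the 33 bHLH genes tested, in order of role, with bars of 1 SE. Genes called higher in melanotropes are red, those called lower are blue and those not called are grey; Mycl (1.79) and Twist2 (-2.47) lie at the ends.

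Of the 45 genes 12 had several transcripts in the table, and their values hardly differed within a gene, as each transcript was counted over exons that it mostly shares with the others. The log2 ratio of melanotrope to corticotrope means (each with 1 FPKM added) differed by at most 0.06 between transcripts of 1 gene, in Mxi1, whose 3 transcripts gave 0.43 to 0.49. The 8 Tcf3 transcripts gave -0.03 in each case, and the 3 Tfeb transcripts gave -1.03 to -1.02. Isoforms were not separated by these values.

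The rest of the family was described from a list of 66 other bHLH genes, of which 22 were tested. Of these 7 were higher and 9 lower in melanotropes, where 18.9% of all genes were higher and 18.3% lower. Their median log2 fold change was -0.15, against 0.00 over all genes. Neurod1, Ahr, Hif3a, Tcf24 and Mlxipl passed the filter through corticotropes alone and Arntl2 through melanotropes alone. The counts are therefore no sign of a direction of the list. Neurod1 had 0.0686 and 0.122 FPKM in melanotropes against 7.52 and 8.28 FPKM in corticotropes (log2 fold change -3.02, limma adjusted p = 3.96e-05). Ahr, the dioxin receptor, and Hif3a, a HIF subunit, were lower too. Ahr had 0.469 and 0.599 FPKM in melanotropes against 2.87 and 2.73 FPKM in corticotropes, and Hif3a had 0.263 and 0.208 FPKM against 2.19 and 1.57 FPKM. Srebf1, which drives lipid synthesis genes, had 27.0 and 28.6 FPKM in melanotropes against 15.0 and 16.2 FPKM in corticotropes, and Arntl2, a clock gene, had 1.93 and 1.99 FPKM against 0.926 and 0.658 FPKM. Without corticotrope replicate 1 the list had 2 lower and without corticotrope replicate 2 it had 4 lower, of 17 tested, and on the deposited scale 3 were higher and 15 lower.

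Upstream of the HES and HEY genes, 9 of 30 tested Notch pathway genes were higher and 4 lower in melanotropes. The median log2 fold change of the 30 was 0.05, and of all genes 18.9% were higher and 18.3% lower. Dll1 and Dlk1 passed the filter through corticotropes alone and Lfng through melanotropes alone, so the counts are no sign of a direction. Dll3, a ligand that blocks Notch within its own cell, had 14.2 and 15.0 FPKM in melanotropes against 3.57 and 3.38 FPKM in corticotropes. The coactivator Maml3 (17.9 and 18.2 FPKM in melanotropes against 5.64 and 5.97 FPKM in corticotropes) and the glycosyltransferase Lfng (2.47 and 2.90 FPKM against 0.620 and 0.969 FPKM) were higher as well. The receptor Notch2 had 4.44 and 5.20 FPKM in melanotropes against 11.7 and 11.7 FPKM in corticotropes, and the ligand Dll1 had 0.217 and 0.183 FPKM against 1.48 and 1.26 FPKM. Dlk1, a noncanonical ligand, had 0.549 and 0.880 FPKM in melanotropes against 21.6 and 21.9 FPKM in corticotropes, and it is also in the list of other anterior lobe lineages. Without rescaling 3 were higher and 18 lower, leaving out either corticotrope library left 1 lower, and without melanotrope replicate 2 there were 4 higher.

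Upstream of the ID genes, 4 of 21 tested genes of the BMP and SMAD pathway were higher and 12 lower in melanotropes. The median log2 fold change of the 21 was -0.33, and of all genes 18.9% were higher and 18.3% lower. Smad6, Smad9, Grem1 and Bmper passed the filter through corticotropes alone, so the count is no sign of a direction of the pathway. Smad6, an inhibitory SMAD, had 0.537 and 0.733 FPKM in melanotropes against 20.02 and 24.1 FPKM in corticotropes (log2 fold change -3.81, limma adjusted p = 3.96e-05). Smad9, a BMP-activated SMAD, had 0.423 and 0.257 FPKM in melanotropes against 2.17 and 1.84 FPKM in corticotropes, and the BMP antagonist Grem1 had 0.0114 and 0.0244 FPKM against 1.75 and 1.19 FPKM. Higher in melanotropes were the antagonist Chrd at 13.04 ± 0.06 FPKM against 5.33 ± 0.22 FPKM in corticotropes (mean ± SD, n = 2 each), Fstl1 at 5.82 and 6.97 FPKM against 3.01 and 3.56 FPKM, and the ligand Bmp7 at 2.16 and 2.59 FPKM against 0.786 and 1.11 FPKM. Leaving out either corticotrope library left 6 lower, of 17 tested.

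Downstream of the HIF subunits, 6 of 23 tested hypoxia targets were higher and 8 lower in melanotropes. The median log2 fold change of the 23 was 0.00, and of all genes 18.9% were higher and 18.3% lower. Ndrg1, Hk2 and Pfkfb3 passed the filter through corticotropes alone and Adm through melanotropes alone, so the counts are no sign of a direction. The peptide hormone gene Adm had 2.21 and 2.80 FPKM in melanotropes against 0.132 and 0.121 FPKM in corticotropes, lactate dehydrogenase Ldha had 55.4 and 57.0 FPKM against 28.7 and 30.0 FPKM, and the oxygen sensor Egln1 had 11.6 and 11.9 FPKM against 7.73 and 8.39 FPKM. The mitophagy receptor Bnip3 had 19.6 and 22.3 FPKM in melanotropes against 48.5 and 59.6 FPKM in corticotropes. Ndrg1 (0.686 and 0.867 FPKM in melanotropes against 4.04 and 5.12 FPKM in corticotropes) and the mTOR inhibitor Ddit4 (19.8 and 18.2 FPKM against 41.6 and 39.8 FPKM) were lower as well. Leaving out either corticotrope library left 4 lower, without melanotrope replicate 1 there were 3 higher and without melanotrope replicate 2 there were 2, and without rescaling 2 were higher and 14 lower.

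**Figure D5:**
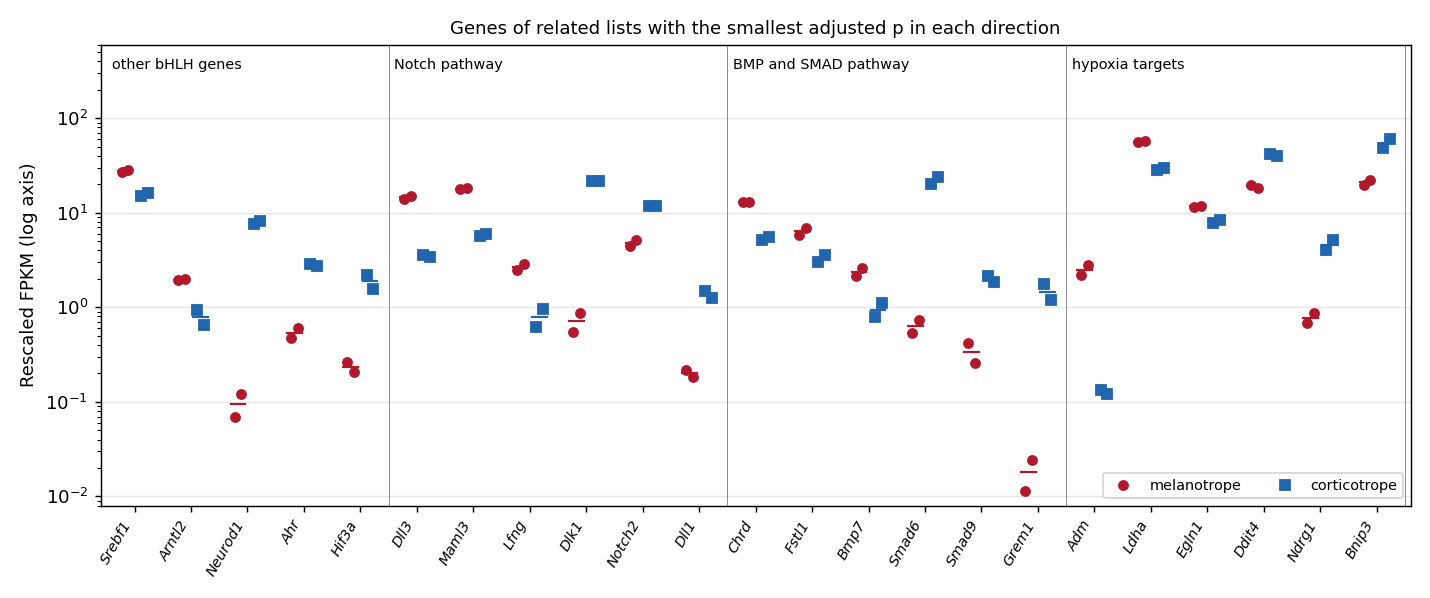
Rescaled FPKM (log axis) of up to 3 genes per direction with the smallest adjusted p in each of 4 related lists, in the 2 melanotrope (red circles) and 2 corticotrope (blue squares) libraries. Libraries of the cell types are apart in each gene shown, as the choice by adjusted p favours.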

How the data were processed

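Total RNA, depleted of its ribosomal part, gave paired-end reads of 50 bases, per the labels' protocols. The authors made the FPKM values with analyzeRepeats of HOMER (build mm10, counting exons), per the file headers. The deposited log2 fold changes, p-values and FDR were written by getDiffExpression of HOMER from that same table, per the file headers. The deposited fold ratio column was not used. TopHat, HOMER and edgeR are named in the submitters' processing notes. Versions, strand setting and pair counting are not given in the sources used.

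FPKM were divided by factors from an unweighted trimmed mean of M values (30% of M and 5% of A trimmed on each side), 0.874 and 0.819 in melanotropes and 1.21 and 1.16 in corticotropes. The longest transcript stood for its gene. limma 3.58.1 in R 4.3.3 (lmFit, eBayes with trend, two-sided, Benjamini-Hochberg over 13046 genes, threshold 0.05) was run on log2(FPKM + 1), with 2 residual and 3.80 prior degrees of freedom. On simulated data (13046 genes), the fit recovered 100% of 100 genes altered by a log2 change of 1 and 100% of 100 altered by 2. There were 8 false calls. The simulated noise was normal, independent between libraries and set by a smooth trend with level. Only genes with a mean log2(FPKM + 1) above 2 were altered. The simulation therefore checks the code and does not measure error rates in these libraries or for lower genes.

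Implied reads are FPKM times length divided by the spacing of low values, which were whole multiples (within 0.1 of a step) for 100% of the 13 to 467 values used per library. Values have 2 decimals in the deposited table, which rounds low genes. The members, gene lists and the rule for named genes (up to 3 genes per direction and list with the smallest adjusted p, and all 45 members) were chosen with earlier results of these data known. 1 gene that this rule names is not reported here, though it is in its list's counts. Promoter windows are RefSeq's on GRCm38.p6. Exon overlaps are from GENCODE M21, where 13 of the 45 genes overlap exons of another gene. Their shares are of all exons annotated for a gene and not of the counted transcript. Other scalings, pseudocounts, filters, transcripts and prior variances, a replicate block and leaving out each library were the alternatives.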

Additional observations from a re-analysis of the deposited data

How the results depend on the processing

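Across 14 alternatives, 10 of the 21 called bHLH genes were called under all 14. Twist2, Heyl and Hey2, high in corticotropes alone, were not tested without corticotrope replicate 1 or 2. Without rescaling, the counts of higher and lower genes were 939 and 8787 over all genes, 4 and 21 in the set, 3 and 15 among other bHLH genes, 3 and 18 in the Notch pathway, 3 and 16 in the BMP and SMAD pathway and 2 and 14 among hypoxia targets. Leaving out 1 library gave 1358 to 1809 higher and 1438 to 1670 lower over all genes, 6 to 7 and 7 to 12 in the set, 5 to 7 and 2 to 6 among other bHLH genes, 4 to 7 and 1 to 3 in the Notch pathway, 3 to 4 and 6 to 10 in the BMP and SMAD pathway, and 2 to 5 and 4 to 6 among hypoxia targets; fewer libraries leave fewer genes above the filter, and a lone library is assumed to vary like the others. Log2 fold changes that turned, none called with all libraries except that of Max, were on the deposited scale those of Hes6 (-0.26), Id2 (-0.17), Myc (-0.12), Max (-0.0833), Arnt2 (-0.29) and Usf1 (-0.45) (median of all genes -0.42). With equal sums of the transcripts other than Pomc, Tcf3 (0.0297) and Tcf4 (0.031) turned. Leaving out 1 library turned Hes1 (range -0.27 to 0.16), Tcf3 (-0.0877 to 0.0327), Tcf4 (-0.0582 to 0.0086), Arnt (-0.34 to 0.0225) and Usf1 (-0.0579 to 0.0882).

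Replicate numbers were shared between the cell types in the labels, and same-numbered libraries deviated together (correlation 0.525 across genes), but with 2 numbers they share only a number. With the replicate block, 3661 genes were called higher and 3542 lower of all 13046 tested, more than without it. In that fit 9 of 33 bHLH genes were higher and 15 lower. Id2 (limma adjusted p = 0.00469) and Hes6 (0.0452) were called higher and Tcf12 (0.0295) lower in addition. Of 30 Notch pathway genes, 11 were higher and 8 lower in the same fit. Depth limits the genes under 0.1 FPKM, which rest on few implied reads.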

Other observations

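Further called genes of the list of other bHLH factors, given to complete it, included partners and regulators of metabolism and the clock. Higher in melanotropes were Mlx, the partner of the glucose-responsive MLXIP proteins, at 20.5 and 20.2 FPKM in melanotropes against 14.5 and 14.7 FPKM in corticotropes, Srebf2, a driver of cholesterol synthesis genes, at 13.2 and 15.3 FPKM against 9.42 and 9.42 FPKM, and the clock genes Arntl (22.9 and 25.6 FPKM against 15.8 and 17.9 FPKM) and Npas2 (3.09 and 2.55 FPKM against 1.55 and 1.99 FPKM). Lower in melanotropes were Mlxip at 4.21 and 3.36 FPKM in melanotropes against 7.40 and 6.12 FPKM in corticotropes, Mlxipl at 0.663 and 0.647 FPKM against 1.28 and 1.28 FPKM, Tcf24 at 0.732 and 0.757 FPKM against 1.69 and 1.48 FPKM, and the coactivator genes Ncoa1 (7.35 and 8.44 FPKM against 14.9 and 11.8 FPKM), Ncoa2 (9.46 and 10.5 FPKM against 12.5 and 12.4 FPKM) and Ncoa3 (7.11 and 7.20 FPKM against 9.53 and 8.85 FPKM). Clock itself was not called, at 9.97 and 9.93 FPKM in melanotropes and 10.4 and 9.50 FPKM in corticotropes. These genes were described after their values had been seen.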
